A study of Mus musculus with 12 samples.

Results

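Injured mouse spinal cord that had received syngeneic mesenchymal stem cells (MSCs) was compared with injured cord that had received none. The comparison takes the 3 libraries labelled as spinal cord injury with syngeneic MSCs and the 3 labelled as spinal cord injury, which are 6 of the 12 libraries of the study. Its features are the 16527 genes that passed the filter on low counts, of 46078 in the table. The libraries were chosen by their labels alone.

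The assay was bulk RNA sequencing of spinal cord tissue with poly(A) selection and a strand-preserving kit. All hosts were of the strain given as C57BL6/cJ. Injury-alone cord and syngeneic cord share the injury and differ, by the labels, in the graft of MSCs, which are multipotent stromal cells, from a genetically matched donor. Allogeneic cord (injury plus MSCs from an unmatched donor, 3 libraries) and non-injured cord (3 libraries) are used here as reference levels. Neither the labels nor the protocols used here give the donor strain and tissue, the site and time of grafting, the time after injury, the hour of the day at collection, or the sex and age of the mice. Nothing states that the 3 samples of a group came from different mice, and the p-values therefore rest on a spread between samples that may be technical. The samples' titles number the syngeneic group apart from the injury-alone group. Whether the groups were handled apart is not given, and a difference in handling cannot be told apart from the graft.

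Spinal cord injury brings monocytes and neutrophils from the blood, activates microglia and astrocytes, and starts a scar in which fibroblasts lay down collagens and basement membrane. Injured cells also switch on immediate early genes, transcription factors and regulators that are induced within minutes of a stimulus. Most cells of the cord also hold a circadian clock, a loop of transcription factors whose transcripts rise and fall over the day. In that loop BMAL1 (from Arntl) pairs with CLOCK or NPAS2 and activates Per, Cry, Nr1d and Dbp genes through E-boxes. PER and CRY proteins then repress that activity, NR1D proteins repress Arntl, Npas2 and Nfil3 through sites called ROREs that ROR proteins activate, and DBP, TEF and HLF activate through D-boxes, at which NFIL3 represses. Arntl and Npas2 transcripts are therefore typically high when Dbp and Per transcripts are low.

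Total counts ranged from 15473549 to 24947862 in the 6 libraries compared and from 8705942 to 26151928 in all 12. The 3 syngeneic libraries were not alike. Pearson's r of log2 CPM (counts scaled to library size) across the 16527 genes was 0.990 to 0.991 within the injury-alone group, which is a description of these libraries because genes are not independent replicates. Syngeneic replicate 3 had r of 0.989 to 0.991 with the injury-alone libraries, and 0.977 and 0.982 with syngeneic replicates 1 and 2. Replicates 1 and 2 had r of 0.983 with each other, close to that of replicate 1 with replicate 3, and 0.968 to 0.978 with the injury-alone libraries. In 37 of the 45 gene lists described here, replicate 3 was the syngeneic library whose mean log2 CPM lay closest to the injury-alone mean. Mitochondrial transcripts made up 5.61%, 8.80% and 5.42% of the counts in syngeneic replicates 1, 2 and 3, and 4.998% to 6.40% in the injury-alone libraries.

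edgeR's quasi-likelihood test called 6 genes at an adjusted p below 0.05 (0.0363% of the genes tested), 1 higher and 5 lower with syngeneic cells. The higher gene was Dbp, a clock output factor. The lower genes were Arntl, the clock activator, Fos, an immediate early gene, Frem2 and Mmp11, genes of the extracellular matrix, and Clec4e, a receptor of myeloid cells. DESeq2 called 28 higher (0.169%) and 98 lower (0.593%), and limma-voom called 2 and 8. At an unadjusted p below 0.05, 917 genes were higher (5.55%) and 1315 lower (7.96%), and with counts scaled to library totals alone that split was 645 to 1580. The 3 syngeneic libraries all lay above the 3 injury-alone libraries for 2011 genes (12.2%) and all below for 1908 (11.5%). These percentages are the background against which counts in gene lists are read. Over all genes tested the median log2 difference was 0.00. In bulk tissue, fewer cells of a type and less RNA per cell cannot be told apart.

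The clock is described first because it holds 2 of the 6 called genes. The promoter stretches below were chosen because they hold matches to motifs of the loop and the early response. Promoters without a match, such as those of Dbp and Fos, are not shown. The stretches hold E-boxes in Ciart, Per1 and Cry1, D-boxes in Per3, and cyclic AMP response elements (CREs) in Btg2 and Dusp1. Each is written 5′ to 3′ on the gene's strand, from RefSeq on GRCm38.p6, lies upstream of the start site outside annotated exons, and has its motif matches in capitals.
Ciart, chr3:95882252-95882401, minus strand: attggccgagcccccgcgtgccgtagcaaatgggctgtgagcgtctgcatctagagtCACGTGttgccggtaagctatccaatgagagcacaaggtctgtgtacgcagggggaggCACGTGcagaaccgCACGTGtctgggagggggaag
Per1, chr11:69098753-69098902, plus strand: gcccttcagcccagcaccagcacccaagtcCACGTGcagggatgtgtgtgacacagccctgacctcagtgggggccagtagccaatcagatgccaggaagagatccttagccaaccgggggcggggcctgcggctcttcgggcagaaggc
Per3, chr4:151044751-151044900, minus strand: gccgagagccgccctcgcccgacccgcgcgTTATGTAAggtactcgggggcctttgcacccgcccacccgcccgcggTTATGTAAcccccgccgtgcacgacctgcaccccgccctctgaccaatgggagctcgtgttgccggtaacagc
Cry1, chr10:85185065-85185214, minus strand: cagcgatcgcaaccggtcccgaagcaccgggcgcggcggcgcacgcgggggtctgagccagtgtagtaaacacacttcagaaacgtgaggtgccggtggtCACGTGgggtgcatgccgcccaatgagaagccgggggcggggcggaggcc
Btg2, chr1:134079202-134079351, minus strand: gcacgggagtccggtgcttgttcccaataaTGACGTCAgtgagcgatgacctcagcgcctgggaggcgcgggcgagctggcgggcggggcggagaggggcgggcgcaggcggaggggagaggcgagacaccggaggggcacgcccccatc
Dusp1, chr17:26508520-26508669, minus strand: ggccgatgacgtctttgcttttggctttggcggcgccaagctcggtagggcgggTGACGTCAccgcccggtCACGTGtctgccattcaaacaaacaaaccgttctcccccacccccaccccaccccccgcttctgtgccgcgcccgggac

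Motifs were searched on both strands in windows of 250 bases before to 50 bases after each RefSeq start site in RefSeq. None of the motifs contains another. The E-box was CACGTG, present in 7.15% of the 32851 windows of that length. The D-box was TTATGTAA or TTACGTAA (1.06%), the RORE TAGGTCA or TGGGTCA (6.45%), the CRE TGACGTCA (1.79%), and the CArG box, a binding site of serum response factor, was in 1.63%. Of the 20 clock genes, 17 had 23 windows in the table. An E-box lay in 5 of those genes, a D-box in 1, a RORE in 2 and a CRE in 1. Ciart held E-boxes 116, 58 and 44 bases before its start, and Per3 held D-boxes 205 and 158 bases before its start. The windows of the called genes Dbp, Fos, Frem2, Mmp11 and Clec4e held none of these motifs, nor did those of Npas2, Nr1d1 and Nr1d2. Arntl held a RORE 30 bases after 1 of its 2 start sites. Of the 29 immediate early genes, 24 had windows, with an E-box in 5, a CRE in 3, a CArG box in 2 and a RORE in 1. Windows on chromosome 18, where Egr1 lies, were left out of these counts. A match is a description of the letters, and says nothing of binding in this tissue.

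Arntl (ENSMUSG00000055116, chr7:113207465-113314126, plus strand, GRCm38) measured 22.8, 21.5 and 20.4 CPM in the injury-alone libraries and 8.92, 8.66 and 10.1 CPM in the syngeneic libraries. The groups did not overlap, and the syngeneic values lay within a narrow range. Arntl fell by 1.22 on the log2 scale (SE 0.12, edgeR adjusted p = 0.00576). Its levels were 10.6, 9.59 and 10.7 CPM in allogeneic cord and 17.9, 15.5 and 14.4 CPM in non-injured cord, so the injury-alone libraries were above and both grafted groups below the non-injured libraries.

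Dbp (ENSMUSG00000059824, chr7:45705088-45710203, plus strand), the clock output factor, measured 20.6, 21.2 and 21.4 CPM in injury-alone cord against 68.7, 79.1 and 68.2 CPM in syngeneic cord. It rose by 1.77 ± 0.21 (log2, SE, adjusted p = 0.0152), with no overlap. Allogeneic libraries stood at 62.4, 75.6 and 64.2 CPM and non-injured libraries at 26.01, 51.0 and 51.4 CPM. Arntl and Dbp thus differed from injury alone in opposite directions, and for both genes the allogeneic libraries stood near the syngeneic ones. The direct test between the grafted groups gave a log2 difference, syngeneic minus allogeneic, of -0.16 ± 0.12 for Arntl (adjusted p = 0.552) and 0.10 ± 0.21 for Dbp (adjusted p = 0.857). Both genes overlap an exon on the other strand, Arntl that of Gm45355 and Dbp that of Sphk2, and the strand setting of the counting is not given, so that reads of the partners cannot be told apart. Sphk2 itself measured 29.4 ± 2.67 CPM in injury-alone and 26.4 ± 1.70 CPM in syngeneic cord (SD, n = 3).

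**Figure D1:**
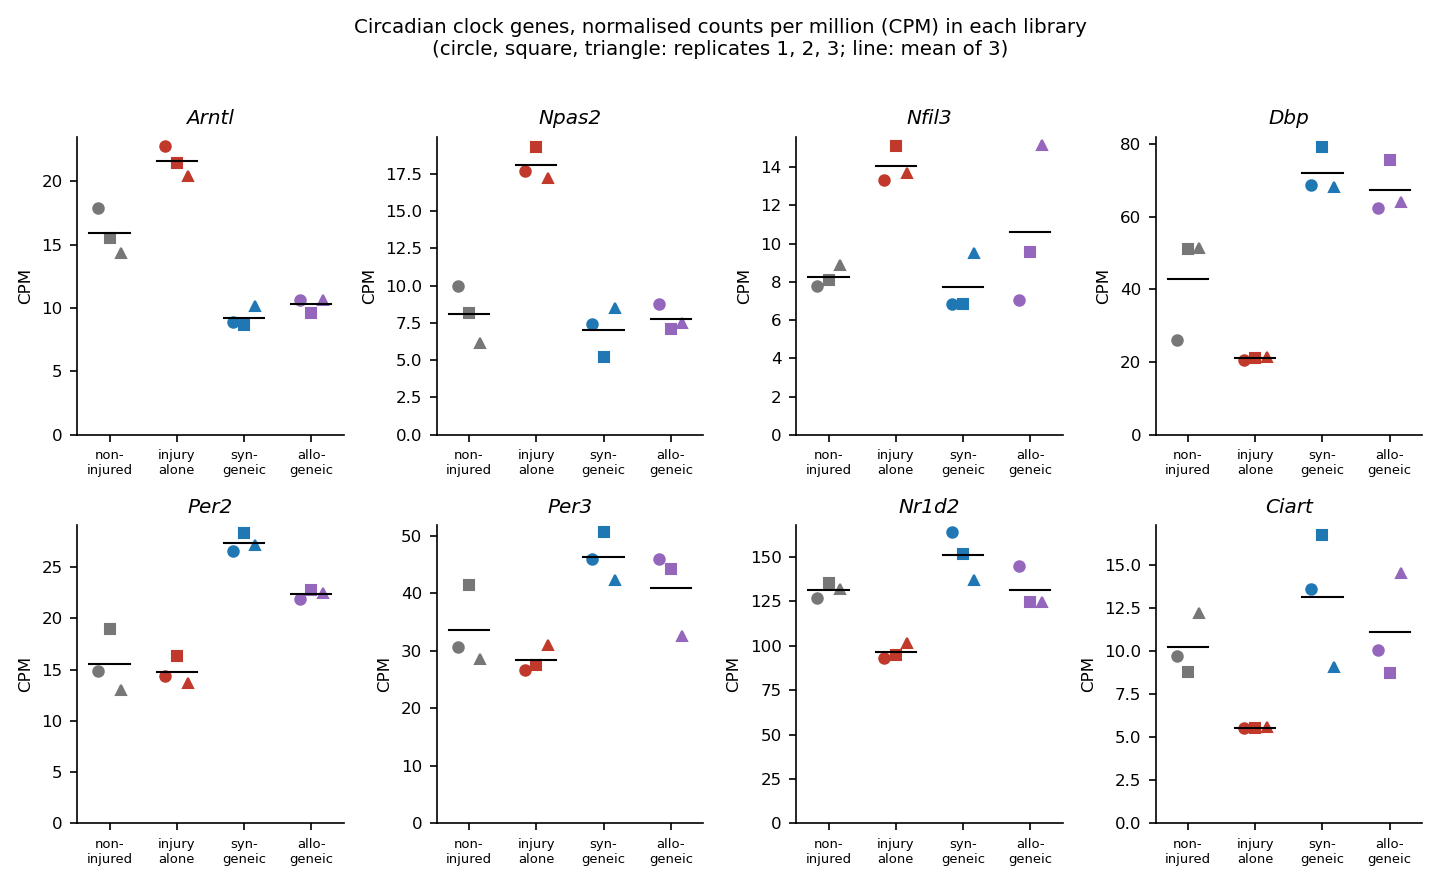
CPM (y axis, from 0, scaled per panel) of 8 clock genes in each library of the 4 groups (x axis), with symbols for replicates 1 to 3 and a line at the mean of 3. Arntl, Npas2 and Nfil3 lie lower and Dbp, Per2, Per3, Nr1d2 and Ciart higher in all 3 syngeneic than in all 3 injury-alone libraries. In all 8 panels the allogeneic mean lies nearer to the syngeneic than to the injury-alone mean. For Nfil3, however, allogeneic replicate 3 (15.2 CPM) lies above all injury-alone libraries.

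All 20 clock genes passed the filter. At an unadjusted p below 0.05, 9 were higher and 3 lower, and the groups did not overlap for 10 higher and 3 lower. edgeR called 1 in each direction, DESeq2 6 higher and 2 lower, and limma-voom 2 and 2. By role, of the 6 activators all 6 had negative log2 differences, and 2 were lower at the unadjusted threshold. Of the 10 repressors 9 had positive differences and 6 were higher, and of the 4 output factors 3 were higher and Nfil3 was lower.

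Npas2, which can replace CLOCK as the partner of BMAL1, measured 17.7, 19.3 and 17.2 CPM in injury-alone and 7.43, 5.23 and 8.48 CPM in syngeneic cord. Its groups did not overlap and its log2 difference of -1.36 ± 0.20 missed the threshold in edgeR (adjusted p = 0.0528). Per2, a repressor of the loop, measured 14.3, 16.3 and 13.7 CPM against 26.6, 28.3 and 27.2 CPM. Here too the groups were apart, with a difference of 0.89 ± 0.13 (adjusted p = 0.0528). DESeq2 and limma-voom called both genes (DESeq2 adjusted p = 4.68e-07 for Npas2 and 2.25e-06 for Per2).

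Nr1d2, a nuclear receptor that represses Arntl, stood at 93.2, 94.9 and 101 CPM in injury-alone and 164, 151 and 137 CPM in syngeneic cord. The difference was 0.64 ± 0.10 (adjusted p = 0.0727). Ciart, which represses BMAL1 with CLOCK and whose promoter holds the 3 E-boxes shown above, was at 5.51, 5.55 and 5.56 CPM against 13.6, 16.7 and 9.06 CPM. Its 3 injury-alone values were nearly equal, its syngeneic values were spread, and the difference was 1.25 ± 0.24 (adjusted p = 0.127). Per3, the member with D-boxes, gave 26.7, 27.5 and 31.1 CPM against 45.8, 50.6 and 42.2 CPM, a difference of 0.70 ± 0.16 (adjusted p = 0.223). DESeq2 called these 3 genes higher as well.

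Among the other output factors, Tef measured 146, 151 and 143 CPM against 234, 209 and 194 CPM, a difference of 0.54 ± 0.12 (adjusted p = 0.216). Hlf gave 59.3, 46.0 and 46.9 CPM against 90.6, 63.2 and 69.5 CPM, a difference of 0.55 ± 0.21 (adjusted p = 0.322). Nfil3, the repressor at D-boxes, lay the other way at 13.4, 15.1 and 13.7 CPM against 6.86, 6.86 and 9.51 CPM, a difference of -0.87 ± 0.24 (adjusted p = 0.296). None of these 3 passed the edgeR test, although their groups did not overlap, and DESeq2 called Tef. Cry1 and Nr1d1 had differences of 0.33 ± 0.11 and 0.41 ± 0.11 (adjusted p = 0.312 and 0.307). Several other clock genes had small differences. They were -0.19 for Clock, -0.06 for Rora, -0.13 for Rorb, 0.16 for Per1, 0.23 for Cry2, -0.09 for Bhlhe40 and 0.09 for Bhlhe41, each smaller than 2 SE. Those of Rora, Rorb, Per1, Bhlhe40 and Bhlhe41 turned sign when a library was left out. Clock transcripts follow the hour of collection, which is not given, and its part in these differences was not tested.

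Glucocorticoid-responsive genes, which also follow the day and stress, were described beside the clock. Of 15, 2 were higher and 1 lower at the unadjusted threshold, and edgeR, DESeq2 and limma-voom each called 0. Tsc22d3, an anti-inflammatory target of glucocorticoids, measured 121, 110 and 117 CPM against 161, 222 and 177 CPM, with no overlap and a difference of 0.69 ± 0.22 (adjusted p = 0.312). Of 14 heat shock genes 0 were higher and 1 lower at the unadjusted threshold, and all 3 tools called 0. That one, Hspa5, the chaperone of the endoplasmic reticulum, gave a difference of -0.45 ± 0.15 (adjusted p = 0.314).

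Fos (ENSMUSG00000021250, chr12:85473890-85477273, plus strand), the partner of JUN in the AP-1 factor, measured 104, 116 and 148 CPM in injury-alone and 35.6, 23.4 and 40.9 CPM in syngeneic cord. It fell by 1.88 ± 0.23 (log2, SE, adjusted p = 0.0152), with no overlap. Levels were 46.8, 42.8 and 41.5 CPM in non-injured and 45.3, 58.0 and 34.2 CPM in allogeneic cord. The injury-alone libraries were therefore the high group among the 4. The direct difference between syngeneic and allogeneic cord was -0.46 ± 0.22 (adjusted p = 0.381).

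Of the 29 immediate early genes 28 passed the filter (Egr4, a zinc finger factor, did not). At an unadjusted p below 0.05, 0 were higher and 15 lower, and in 17 all syngeneic libraries lay below all injury-alone libraries. The median log2 difference was -0.72. edgeR and limma-voom called Fos, and DESeq2 called 10. By role, 6 of 9 AP-1 genes, 2 of 6 zinc finger factors, 1 of 3 nuclear receptors and 6 of 7 other early genes were lower at the unadjusted threshold. The 3 neuronal effectors Arc, Npas4 and Homer1, which respond to synaptic activity, had differences of -0.04, 0.14 and -0.06 with none past it.

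**Figure D2:**
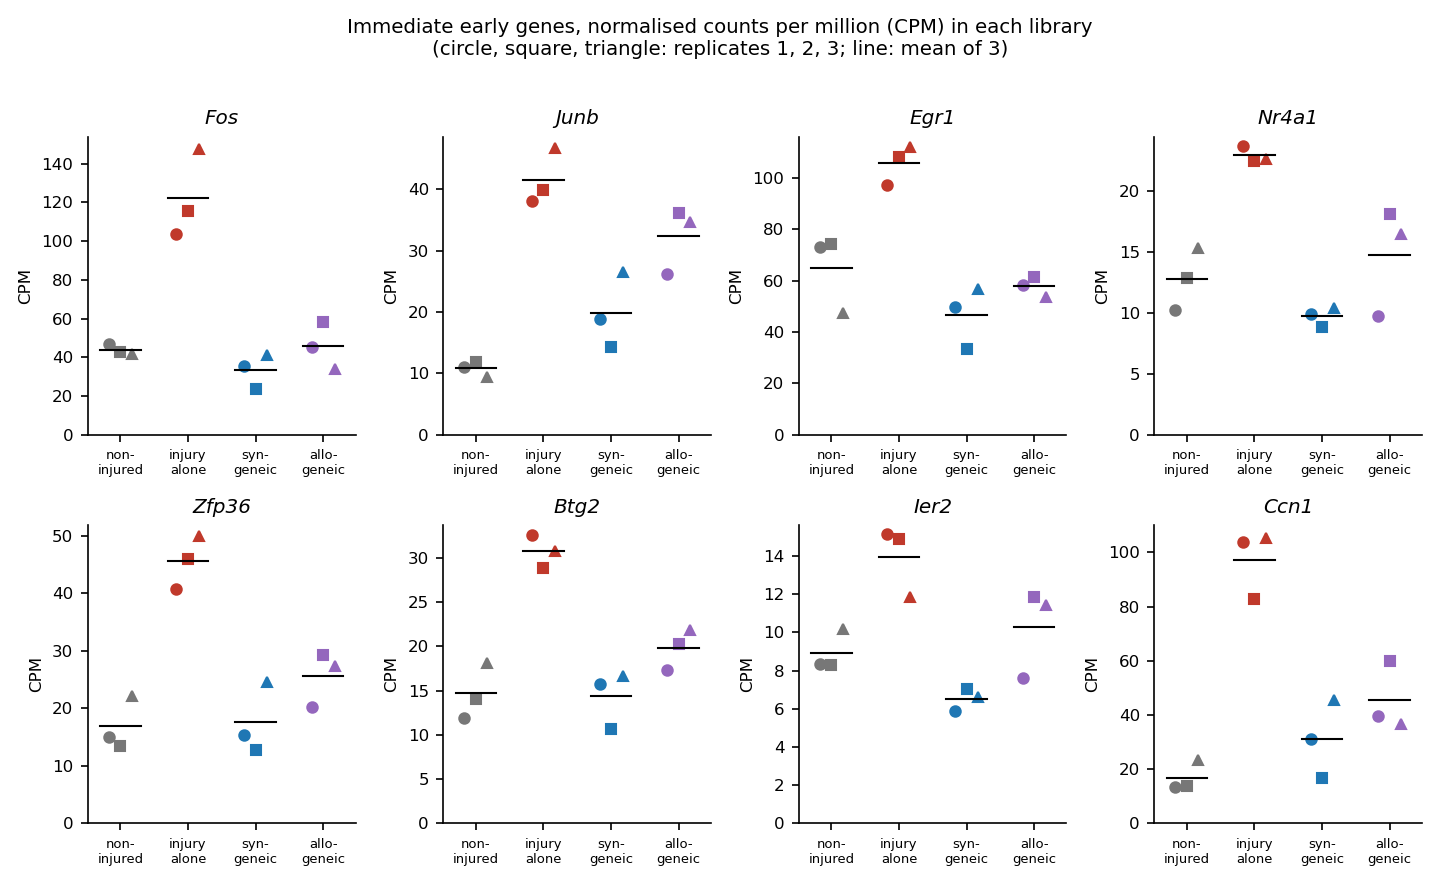
CPM (y axis, from 0, scaled per panel) of 8 immediate early genes in each library of the 4 groups (x axis), with symbols for replicates 1 to 3 and a line at the mean of 3. In each panel the 3 injury-alone libraries lie above every syngeneic, allogeneic and non-injured library. For Ier2 the margin is narrow, with injury-alone replicate 3 at 11.8495 CPM and allogeneic replicate 2 at 11.8467 CPM.

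Egr1, a zinc finger factor of the early response, measured 97.2, 108 and 112 CPM in injury-alone and 49.8, 33.2 and 56.6 CPM in syngeneic cord. The groups were apart by a wide margin, with a difference of -1.19 ± 0.20 (adjusted p = 0.0972). Nr4a1, an orphan nuclear receptor, stood at 23.7, 22.4 and 22.6 CPM against 9.88, 8.78 and 10.4 CPM, a difference of -1.24 ± 0.21 (adjusted p = 0.0972). Both groups were tight for this gene. Ier2 gave 15.1, 14.9 and 11.8 CPM against 5.86, 7.03 and 6.62 CPM, a difference of -1.10 ± 0.18 (adjusted p = 0.0972). Btg2, an antiproliferative gene whose promoter holds the CRE shown above, gave 32.6, 28.9 and 30.8 CPM against 15.8, 10.7 and 16.7 CPM, a difference of -1.10 ± 0.19 (adjusted p = 0.0972). DESeq2 called all 4 of these genes lower.

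Zfp36, which speeds the decay of cytokine mRNAs, measured 40.8, 45.9 and 49.9 CPM against 15.3, 12.8 and 24.6 CPM, a difference of -1.38 ± 0.25 (adjusted p = 0.107). Junb, an AP-1 member, gave 38.1, 39.9 and 46.7 CPM against 18.8, 14.3 and 26.6 CPM, a difference of -1.07 ± 0.20 (adjusted p = 0.120). In both, syngeneic replicate 3 was the highest of its group and still below every injury-alone library. Ccn1, a matricellular protein gene, stood at 104, 82.7 and 105 CPM against 31.2, 16.8 and 45.6 CPM, a difference of -1.65 ± 0.33 (adjusted p = 0.155). Fosl1, another AP-1 member, had 137 counts in the injury-alone and 16 in the syngeneic libraries. It measured 1.90, 0.988 and 4.99 CPM against 0.175, 0.286 and 0.321 CPM, so its injury-alone values were spread and replicate 3 weighs most in them. Its ratio of pooled CPM was 0.0968 (exact 95% interval 0.0538 to 0.163, for counting error alone), with a fitted log2 difference of -3.33 ± 0.60 (adjusted p = 0.107). The other AP-1 genes ranged from Fosb at -1.15 and Fosl2 at -0.97 through Atf3 at -0.90, Jun at -0.51 and Maff at -0.45 to Jund at -0.11. Dusp1, a phosphatase gene of the same list with the CRE and E-box shown above, had a difference of -0.66 ± 0.17 (adjusted p = 0.278).

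The genes next in p are given here whether or not a list holds them, and were chosen among genes whose groups did not overlap. Rasa2, a Ras GTPase activator, measured 37.1, 37.2 and 40.7 CPM against 26.8, 20.3 and 23.3 CPM (difference -0.71 ± 0.12, adjusted p = 0.0972). Sash1, a scaffold gene, gave 248, 265 and 252 CPM against 161, 123 and 172 CPM (difference -0.75 ± 0.13, adjusted p = 0.104). Both had non-injured levels below the injury-alone range, at 22.8 to 23.2 CPM for Rasa2 and 119 to 148 CPM for Sash1. Vstm4, a membrane protein gene, was at 47.4, 47.1 and 40.1 CPM against 17.6, 18.7 and 24.2 CPM (difference -1.16 ± 0.20, adjusted p = 0.106). Socs3, the feedback inhibitor of cytokine signalling through STAT3, gave 20.6, 25.9 and 50.6 CPM against 6.91, 4.53 and 11.3 CPM (difference -2.11 ± 0.37, adjusted p = 0.107). Its non-injured libraries held 2.01 to 3.19 CPM.

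On the higher side, Cables1, a CDK-binding protein gene, measured 11.6, 10.4 and 12.1 CPM against 18.7, 16.8 and 18.8 CPM (difference 0.67 ± 0.12, adjusted p = 0.107). Fmo2, a flavin monooxygenase gene, gave 2.82, 2.20 and 2.55 CPM against 5.90, 11.8 and 13.4 CPM (difference 2.04 ± 0.47, adjusted p = 0.223). Syngeneic replicate 3 was the highest library for Fmo2. Ndn, an imprinted neuronal gene, stood at 119, 129 and 110 CPM against 158, 230 and 178 CPM (difference 0.66 ± 0.15, adjusted p = 0.231). Gjd2, the connexin of neuronal gap junctions, gave 12.99, 13.01 and 12.6 CPM against 20.9, 21.6 and 16.1 CPM (difference 0.61 ± 0.15, adjusted p = 0.264), and its non-injured libraries held 23.9 to 25.2 CPM. Carlr, Asb16, 2410018L13Rik and Gm26633 completed the set, with differences of 1.04, 0.87, 0.58 and 0.97 and adjusted p of 0.223, 0.266, 0.231 and 0.278.

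Frem2 (ENSMUSG00000037016, chr3:53513938-53657355, minus strand), a protein of the Fraser complex that anchors epithelia to basement membrane, measured 11.5, 13.2 and 11.8 CPM in injury-alone and 5.59, 5.47 and 6.10 CPM in syngeneic cord. It fell by 1.09 ± 0.13 (log2, SE, adjusted p = 0.0152). The syngeneic libraries overlapped the non-injured range of 4.75 to 5.90 CPM, and the allogeneic libraries stood between, at 7.52, 7.45 and 7.93 CPM. Mmp11 (ENSMUSG00000000901, chr10:75923222-75936496, minus strand), stromelysin-3, a protease of stromal cells, measured 9.80, 6.59 and 7.14 CPM against 2.71, 2.25 and 3.21 CPM. It fell by 1.53 ± 0.20 (adjusted p = 0.0259), with no overlap, and its exons overlap those of Chchd10 on the other strand. Allogeneic cord held 4.86, 4.85 and 5.35 CPM of Mmp11 and non-injured cord 1.55, 1.94 and 1.74 CPM. Against allogeneic cord the difference was -0.42 ± 0.13 for Frem2 (adjusted p = 0.237) and -0.89 ± 0.20 for Mmp11 (adjusted p = 0.101).

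**Figure D3:**
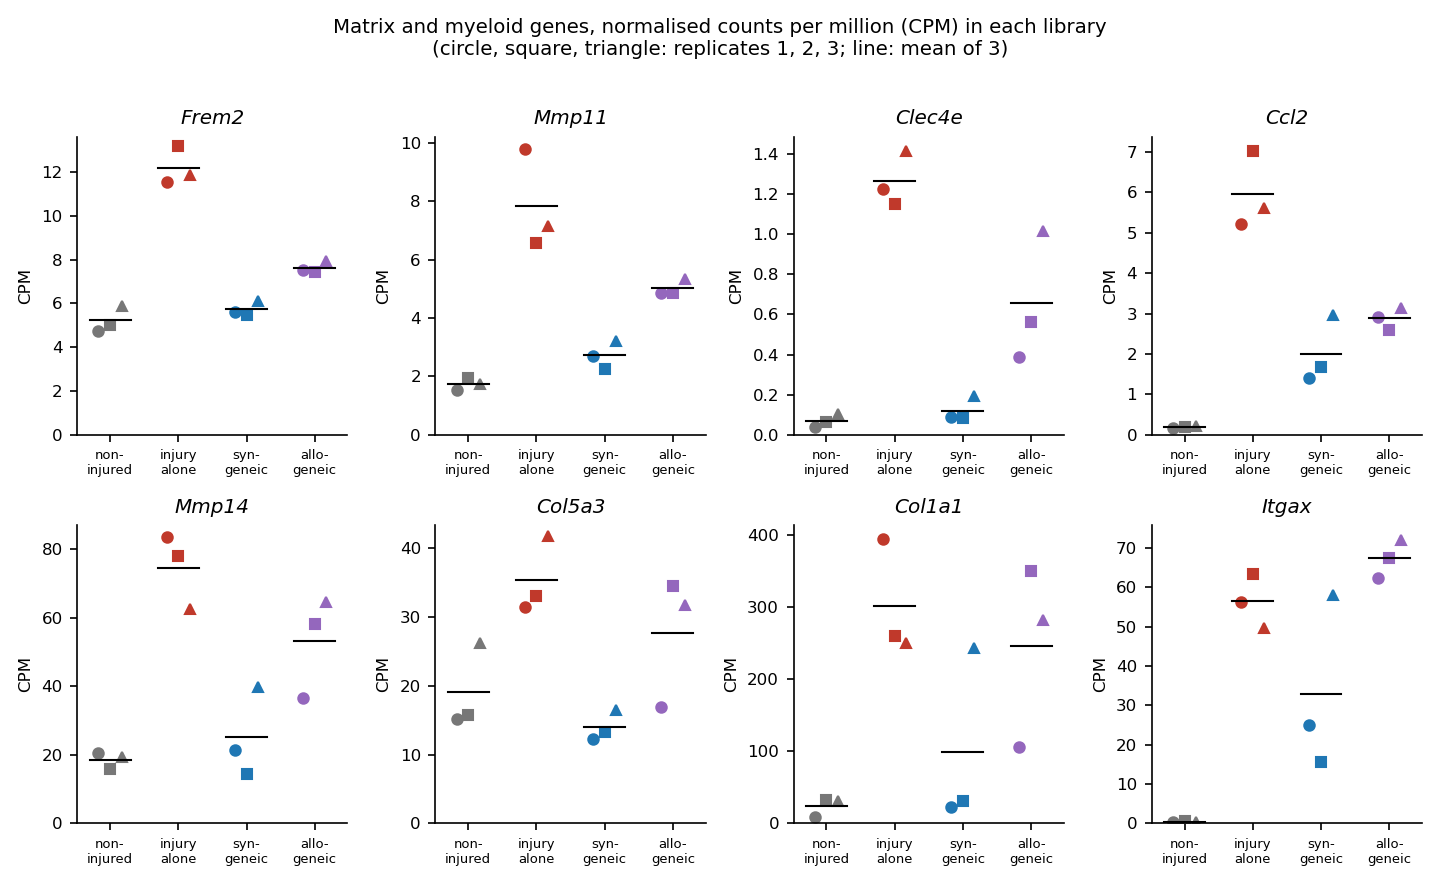
CPM (y axis, from 0, scaled per panel) of 8 matrix and myeloid genes in each library of the 4 groups (x axis), with symbols for replicates 1 to 3 and a line at the mean of 3. Frem2, Mmp11 and Clec4e are low in all 3 syngeneic libraries, whereas in Col1a1 and Itgax replicates 1 and 2 are low and replicate 3, at 243 and 58.0 CPM, stands beside the injury-alone libraries.

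Of the 27 basement membrane genes 0 were higher and 16 lower at the unadjusted threshold, the groups were apart for 20, all lower, and the median difference was -0.70. edgeR, DESeq2 and limma-voom called 1, 6 and 1 lower, and the DESeq2 genes were Frem2, Lama2, Col4a1, Col4a2, Col4a4 and Hspg2. Lower at the unadjusted threshold were 7 of 11 laminins, 5 of 6 type IV collagens, 3 of 5 linkers such as nidogen and perlecan, and 1 of 5 Fraser complex genes. In that complex Frem2 was thus the exception, with the median of the 5 at -0.06. Col4a4, a chain of the type IV network, gave 3.43, 2.91 and 2.72 CPM against 1.01, 1.18 and 1.86 CPM (difference -1.18 ± 0.26, adjusted p = 0.216).

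The 17 collagens of fibrous tissue, the fibres and beaded filaments of scar, all had negative differences, with a median of -1.26. Of these, 10 were lower at the unadjusted threshold and 12 had groups apart, and edgeR, DESeq2 and limma-voom called 0, 1 and 0. All 7 fibrillar collagens were apart. Col5a3, a fibrillar chain that was the member DESeq2 called, measured 31.4, 33.0 and 41.8 CPM against 12.3, 13.2 and 16.5 CPM (difference -1.34 ± 0.28, adjusted p = 0.157). Its 3 syngeneic libraries were all low. Col1a1, the main chain of type I collagen, measured 394, 260 and 250 CPM against 22.2, 31.4 and 243 CPM (difference -1.61 ± 0.81, adjusted p = 0.401). Here replicates 1 and 2 lay within the non-injured range of 8.62 to 32.1 CPM, and replicate 3 just under the lowest injury-alone library. Without replicate 3 edgeR called 14 of the 17 lower, Col1a1 among them (adjusted p = 0.0193), where it called 4.76% of all genes tested lower. That share is also the background for the counts without replicate 3 in the lists that follow. Leaving out any other library of the comparison instead gave 0 calls in edgeR over all genes.

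Of 22 fibroblast and matricellular genes 14 were lower at the unadjusted threshold and 0 higher, 11 were apart, the median was -0.96, and edgeR, DESeq2 and limma-voom called 0, 1 and 0. Fbn1, the fibrillin of elastic microfibrils and the gene DESeq2 called, gave 34.2, 33.1 and 25.2 CPM against 12.2, 8.99 and 21.3 CPM (difference -1.13 ± 0.31, adjusted p = 0.293). Pdgfrb, a receptor of pericytes and the fibroblasts derived from them, gave 57.7, 45.5 and 38.8 CPM against 24.9, 24.4 and 35.8 CPM (difference -0.74 ± 0.22, adjusted p = 0.312). In both, replicate 3 was the highest syngeneic library. The summed level of the list was 3572 to 3887 CPM in the injury-alone, 2096 to 3412 CPM in the syngeneic and 1805 to 2456 CPM in the non-injured libraries.

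Of 20 tested matrix metalloproteinases and inhibitors of the Timp family 7 were lower and 0 higher at the unadjusted threshold, with a median of -0.78, and edgeR, DESeq2 and limma-voom called 1, 2 and 1. With genes under a mean log2 CPM of 1 left out, that median was -0.18. Mmp14, the membrane-bound collagenase that activates MMP2, measured 83.5, 78.0 and 62.5 CPM against 21.4, 14.3 and 39.8 CPM (difference -1.58 ± 0.32, adjusted p = 0.155). Its groups were apart, and DESeq2 called it. Of the 4 Timp genes 1 was lower at the unadjusted threshold.

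Meningeal genes, a source of fibroblast transcripts that dissection could bring, had 4 of 12 lower at the unadjusted threshold, a median of -0.87, and 0 calls by edgeR, DESeq2 and limma-voom. Their summed level was 914 to 1477 CPM in injury-alone and 664 to 1188 CPM in syngeneic libraries, so the ranges overlapped. Slc6a13, a transporter of the meninges, gave 16.7, 12.7 and 12.8 CPM against 2.27, 1.43 and 8.67 CPM. Of 14 tested mesenchymal stromal cell genes, the class of the grafted cells, 1 was higher and 3 lower at the unadjusted threshold, and the 3 tools called 0. Prrx1 and Lepr, a transcription factor and the leptin receptor of stromal cells, had differences of -0.80 ± 0.21 and -1.33 ± 0.39 (adjusted p = 0.278 and 0.312). Of the 14 differences, 11 were negative and 3 positive, with a median of -0.41. The summed level of that list was 1004 to 1142 CPM without and 1013 to 1055 CPM with the graft. That sum includes Thy1, which is also a neuronal gene and was the 1 member higher at the unadjusted threshold.

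Clec4e (ENSMUSG00000030142, chr6:123281789-123289870, minus strand), the Mincle receptor that senses dead cells and microbial glycolipids, measured 1.23, 1.15 and 1.42 CPM in injury-alone and 0.0874, 0.0817 and 0.193 CPM in syngeneic cord. These levels rest on 66 and 7 counts. Clec4e passed the filter on low counts because of its level in the injury-alone libraries. No syngeneic or non-injured library reached the floor of that filter, so its call is tied to the group in which it was high. Clec4e fell by 3.41 ± 0.46 on the log2 scale (adjusted p = 0.0259), and the ratio of pooled CPM was 0.0879 (exact 95% interval 0.0340 to 0.192, for counting error alone). DESeq2 gave it no adjusted p. Allogeneic cord held 0.389, 0.564 and 1.01 CPM, and the direct difference, syngeneic minus allogeneic, was -2.54 ± 0.49 (adjusted p = 0.0465). Of the 16527 genes, 101 (0.611%) were called between syngeneic and allogeneic cord. Clec4e was the one of the 6 genes described as called above that was among them.

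Of 11 tested C-type lectin genes of myeloid cells all had negative differences, with a median of -1.22. At the unadjusted threshold 7 were lower and 8 were apart, and edgeR, DESeq2 and limma-voom called 1, 0 and 1. Clec10a, the galactose-type lectin of macrophages, gave 1.41, 1.70 and 1.02 CPM against 0.175, 0.490 and 0.642 CPM (difference -1.69 ± 0.46, adjusted p = 0.292). Without syngeneic replicate 3, 10 of the 11 were called lower and the median was -2.04.

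Ccl2, the chemokine that draws monocytes through CCR2, measured 5.21, 7.03 and 5.61 CPM against 1.40, 1.67 and 2.96 CPM, with 0.155 to 0.205 CPM in non-injured cord. The groups were apart, and the difference was -1.59 ± 0.26 (adjusted p = 0.0972). Both DESeq2 and limma-voom called it. Ccr2, its receptor and a marker of blood-derived monocytes, gave 5.27, 4.78 and 6.18 CPM against 1.40, 1.23 and 3.21 CPM (difference -1.51 ± 0.36, adjusted p = 0.240). Lif, a cytokine of the gp130 family, gave 2.88, 2.64 and 7.03 CPM against 1.09, 0.735 and 1.09 CPM (difference -2.11 ± 0.43, adjusted p = 0.155). Of 19 tested cytokine and chemokine genes 10 were lower at the unadjusted threshold, 7 were apart, the median was -0.84, and edgeR, DESeq2 and limma-voom called 0, 2 and 1.

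Monocyte and macrophage genes had 10 of 19 lower at the unadjusted threshold, 9 apart and a median of -0.87, with 0, 2 and 0 called by the 3 tools. Arg1, a marker of repair-type macrophages, had 36 and 13 counts and a difference of -1.69 ± 0.54 (adjusted p = 0.312). The summed level of the list was 982 to 1413 CPM in injury-alone and 306 to 1348 CPM in syngeneic libraries.

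Microglial genes had 5 of 14 lower at the unadjusted threshold, 4 apart and a median of -0.54, and the 3 tools called 0. Their summed levels overlapped, at 1840 to 2180 CPM in injury-alone and 905 to 1958 CPM in syngeneic libraries. Csf1r, the survival receptor of microglia and macrophages, stood at 319, 398 and 353 CPM against 215, 158 and 313 CPM (difference -0.64 ± 0.21, adjusted p = 0.312). Cx3cr1, the fractalkine receptor, gave 210, 244 and 221 CPM against 129, 97.1 and 201 CPM (difference -0.67 ± 0.23, adjusted p = 0.314). Aif1, which encodes IBA1, gave 25.6, 25.7 and 22.5 CPM against 14.1, 13.2 and 23.5 CPM, and its groups overlapped through replicate 3. In the list of phagocyte lipid and lysosome genes, 2 of 21 were lower at the unadjusted threshold and 1 was apart, although all 21 differences were negative with a median of -0.65, and the 3 tools called 0. Itgax, the CD11c integrin of lipid-laden phagocytes, gave 56.2, 63.4 and 49.7 CPM against 25.0, 15.5 and 58.0 CPM. Without replicate 3, 17 of these 21 and 9 of the 14 microglial genes were called lower.

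Complement genes, many of them made by the same myeloid cells and by astrocytes, had 6 of 12 lower at the unadjusted threshold, 3 apart and a median of -0.94, with 0 called by the 3 tools. C4b measured 561, 713 and 749 CPM against 332, 261 and 511 CPM (difference -0.87 ± 0.27, adjusted p = 0.312). All 12 were called lower without replicate 3. Of 24 interferon response genes 2 were lower at the unadjusted threshold, and the 3 tools called 0. All 24 differences were negative, with a median of -0.38. Irf1, a factor induced by interferon gamma, gave 15.5, 13.5 and 12.1 CPM against 9.27, 8.91 and 11.4 CPM (difference -0.48 ± 0.13, adjusted p = 0.312), and allogeneic cord held 18.4, 19.97 and 18.3 CPM. Its difference between syngeneic and allogeneic cord passed the test at -0.94 (adjusted p = 0.00777). Of 15 class I and 11 class II antigen presentation genes, 4 and 2 were lower at the unadjusted threshold, with 0 called by the 3 tools. Differences were negative for 14 of the class I genes (median -0.45) and all 11 class II genes (median -0.78).

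Neutrophil genes had 8 of 12 tested lower at the unadjusted threshold, 9 apart and a median of -1.11, with 0, 1 and 0 called by edgeR, DESeq2 and limma-voom. Their summed levels overlapped, at 149 to 201 CPM in injury-alone and 88.6 to 178 CPM in syngeneic libraries. S100a9, a chain of calprotectin and the gene DESeq2 called, gave 9.31, 14.2 and 11.9 CPM against 3.10, 6.99 and 2.44 CPM (difference -1.48 ± 0.39, adjusted p = 0.278). S100a8, its partner, gave 7.54, 9.11 and 8.90 CPM against 2.05, 5.19 and 2.70 CPM (difference -1.35 ± 0.36, adjusted p = 0.286). For these genes replicate 2, not replicate 3, was the highest syngeneic library. Red blood cell genes had differences of the same sign. Of 7 tested, 5 were lower at the unadjusted threshold and all 7 were apart, with a median of -0.93 and 0 called by the 3 tools. Their summed level was 289 to 358 CPM in injury-alone, 86.2 to 225 CPM in syngeneic and 219 to 301 CPM in non-injured libraries, and no gene of the list had 0 counts in all 6 libraries. The haemoglobin genes have near-identical copies and are uncertain singly. The part of blood in the vessels in the neutrophil and monocyte values was not tested.

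T and natural killer cell genes had 4 of 18 tested lower at the unadjusted threshold, and B cell genes 3 of 8, with 0 called by the 3 tools in both. The summed T and natural killer level was 13.8 to 18.1 CPM in injury-alone, 7.22 to 13.6 CPM in syngeneic and 73.6 to 148 CPM in allogeneic libraries. Trac, the constant region of the T cell receptor alpha chain, gave 4.11, 3.62 and 2.78 CPM against 1.70, 2.12 and 2.12 CPM (difference -0.82 ± 0.29, adjusted p = 0.314). Between syngeneic and allogeneic cord its difference passed the test at -2.14 (adjusted p = 0.00656). The B cell gene Igkc had 15.6, 1.43 and 1.25 CPM in the injury-alone libraries, so that 1 library carries its fitted difference of -3.42 ± 1.03 (adjusted p = 0.312).

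Reactive astrocyte genes had 11 of 19 lower at the unadjusted threshold, 13 apart and a median of -0.77, and edgeR, DESeq2 and limma-voom called 0, 2 and 1. Ptx3, a pentraxin, measured 20.3, 18.6 and 24.2 CPM against 5.55, 3.55 and 9.83 CPM, with 0.5798 to 0.974 CPM in non-injured cord (difference -1.75 ± 0.32, adjusted p = 0.107). S1pr3, a sphingosine phosphate receptor, gave 67.0, 64.8 and 79.6 CPM against 26.5, 18.7 and 44.1 CPM (difference -1.25 ± 0.24, adjusted p = 0.119). In both, all 3 syngeneic libraries lay between the non-injured and the injury-alone values. Gfap, the intermediate filament of astrocytes, gave 5758, 6841 and 6975 CPM against 3737, 3819 and 5869.5 CPM. Its groups overlapped, with a difference of -0.54 ± 0.27 (adjusted p = 0.401). Of 13 homeostatic astrocyte genes 2 were lower at the unadjusted threshold, with a median of -0.09 and 0 called by the 3 tools, and of 15 scar proteoglycan and tenascin genes 2 were higher and 3 lower, also with 0 called.

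Neuronal genes lay on the higher side. Of 15, 11 were higher at the unadjusted threshold, 7 were apart, all 15 differences were positive with a median of 0.42, and edgeR, DESeq2 and limma-voom called 0. Snap25, a protein of synaptic vesicle fusion, measured 2145, 1737 and 2009 CPM in injury-alone and 2846, 3457 and 2242 CPM in syngeneic cord, with 3146 to 3735 CPM in non-injured cord. The difference was 0.54 ± 0.17 (adjusted p = 0.312). Thy1, a surface protein of projection neurons, gave 445, 384 and 384 CPM against 544, 596 and 463 CPM (difference 0.40 ± 0.13, adjusted p = 0.312). In both genes replicate 3 was the syngeneic library nearest to the injury-alone values. The summed level of the list was 10462 to 12694 CPM in injury-alone, 12974 to 17092 CPM in syngeneic and 17642 to 19254 CPM in non-injured libraries.

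Cholinergic motor neuron genes had 4 of 13 higher at the unadjusted threshold and a median of 0.39, with 0 called by the 3 tools. Slc5a7, the choline transporter, gave 102, 92.4 and 91.4 CPM against 151, 134 and 117 CPM, with no overlap. Of 28 neurotransmitter receptor and transporter genes 1 was higher at the unadjusted threshold, and 7 were apart. Glrb, the beta subunit of the glycine receptor, was that gene, with 278, 242 and 269 CPM against 390, 405 and 305 CPM. Of 25 neuronal ion channels 1 was higher at the unadjusted threshold and 7 were apart, and the 3 tools called 0 in both lists. These shares, 1 of 28 and 1 of 25, lie near or under the background of 5.55%.

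Cholesterol synthesis genes, which oligodendrocytes use for myelin, had 10 of 21 higher at the unadjusted threshold, 7 apart and a median of 0.58, with 0 called by the 3 tools. Fdft1, squalene synthase, gave 58.9, 54.4 and 63.0 CPM against 83.1, 127 and 69.4 CPM (difference 0.67 ± 0.20, adjusted p = 0.312), and its exons overlap those of Ctsb on the other strand. Mvk, mevalonate kinase, gave 14.4, 11.8 and 13.8 CPM against 20.02, 27.9 and 16.3 CPM (difference 0.69 ± 0.22, adjusted p = 0.312). For Hmgcs1, the synthase at the head of the pathway, the values were 249, 211 and 321 CPM against 342, 729 and 288 CPM. In all 3 genes replicate 2 was the highest syngeneic library. It was also the one with the highest mitochondrial share, 8.80%, and its mean log2 CPM of mature myelin genes lay 0.57 above the injury-alone mean, against -0.18 and 0.02 in replicates 1 and 3. Their part in the cholesterol values was not tested.

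Of 14 mature myelin genes 0 passed the unadjusted threshold in either direction and none was apart, with a median of 0.16 and 0 called by the 3 tools. Mbp, myelin basic protein, stood at 12917, 10029 and 14349 CPM against 9029, 18572 and 10625 CPM. Nuclear genes of oxidative phosphorylation had 8 of 15 higher at the unadjusted threshold and 11 apart, with a median of 0.29 and 0 called by the 3 tools. Cycs, cytochrome c, gave 81.0, 71.2 and 70.2 CPM against 92.8, 106 and 83.8 CPM. Of 18 cell cycle genes 7 were lower at the unadjusted threshold and 8 were apart, with a median of -0.59 and again 0 called. Ccna2, cyclin A2, gave 4.90, 6.53 and 7.43 CPM against 2.93, 3.23 and 4.24 CPM.

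**Figure D4:**
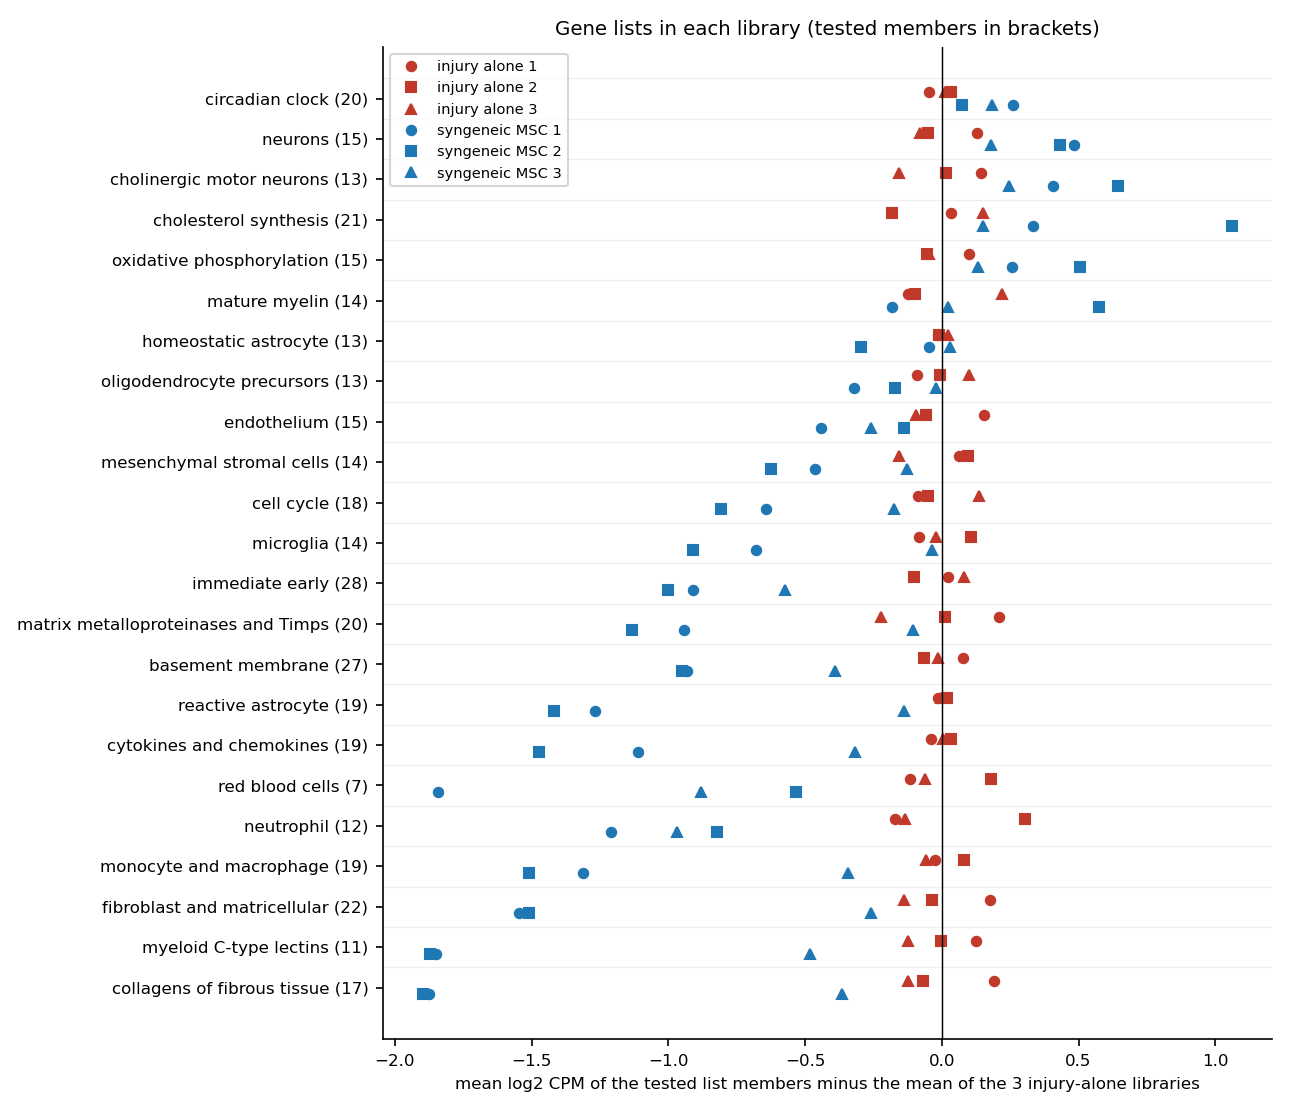
Mean log2 CPM of the tested members of 23 gene lists (y axis, number of members in brackets) in each injury-alone and syngeneic library, minus the mean of the 3 injury-alone libraries (x axis). Syngeneic replicates 1 and 2 lie far to the left for collagens, lectins and fibroblast genes. Replicate 3 lies closer to 0 there but still left of the injury-alone libraries. It also lies left of them for immediate early and neutrophil genes, and for neutrophil genes replicate 2 is the syngeneic library closest to 0.

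Genes of vessels had mostly negative differences, 12 of 15 in endothelium and 10 of 11 in pericytes and smooth muscle. Of 15 endothelial genes 5 were lower at the unadjusted threshold and 8 were apart on the lower side, with a median of -0.28, and edgeR, DESeq2 and limma-voom called 0, 1 and 0. Cldn5, the claudin of the blood-brain barrier, was the gene DESeq2 called, at 66.5, 47.4 and 43.2 CPM against 21.9, 33.0 and 27.4 CPM (difference -0.93 ± 0.22, adjusted p = 0.231). Of 11 pericyte and smooth muscle genes 2 were lower at the unadjusted threshold and 6 apart on the lower side, with 0 called by the 3 tools. Oligodendrocyte precursor, Schwann cell, ependymal, bone and cartilage, skeletal muscle, adipocyte and Hox lists had 2 of 13, 1 of 13, 0 of 11, 1 of 9, 0 of 5, 0 of 2 and 0 of 15 tested members lower at the unadjusted threshold, and 0 higher. All 3 tools called 0 in each. Summed levels overlapped between injury-alone and syngeneic libraries for Schwann cells (1630 to 1875 against 1276 to 1977 CPM), muscle (4.77 to 5.999 against 2.78 to 4.81 CPM) and adipocytes (4.08 to 8.02 against 1.62 to 6.03 CPM, with Lep at 0 counts in all 6 libraries). Hox genes, which mark the segment of cord taken, had a median of 0.17. Axon growth genes had 5 of 19 and trophic factor genes 2 of 17 lower at the unadjusted threshold, with 0 of 19 and 1 of 17 higher, and DESeq2 called 1 lower in each (Socs3 and Lif) while edgeR and limma-voom called 0.

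The number of genes called depended on which libraries were in the fit. Without syngeneic replicate 3, edgeR called 62 genes higher (0.367% of 16876 tested) and 804 lower (4.76%), including all 6 genes called with it. Leaving out any other library of the comparison gave 0 calls, with the smallest adjusted p between 0.0501 and 0.0829, although 990 to 1727 genes had an unadjusted p below 0.05. DESeq2 and limma-voom were not run on those subsets. Of the 804 lower genes, 800 were also tested with all libraries. Of those 800, 643 also had replicate 3 below the injury-alone mean, and 447 had all 3 syngeneic libraries below all 3 injury-alone libraries. In these 800 the median log2 difference from the injury-alone mean was -1.17 for replicates 1 and 2 and -0.17 for replicate 3. For the 62 higher genes it was 0.65 and 0.22, with 61 on the same side in replicate 3 and 49 apart. The larger count describes replicates 1 and 2. The 800 and 62 genes were picked by those replicates against the same injury-alone libraries. The counts with all 3 libraries apart were therefore partly fixed in advance and do not test replicate 3. Over all genes tested, 11.5% were apart on the lower and 12.2% on the higher side.

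**Figure D5:**
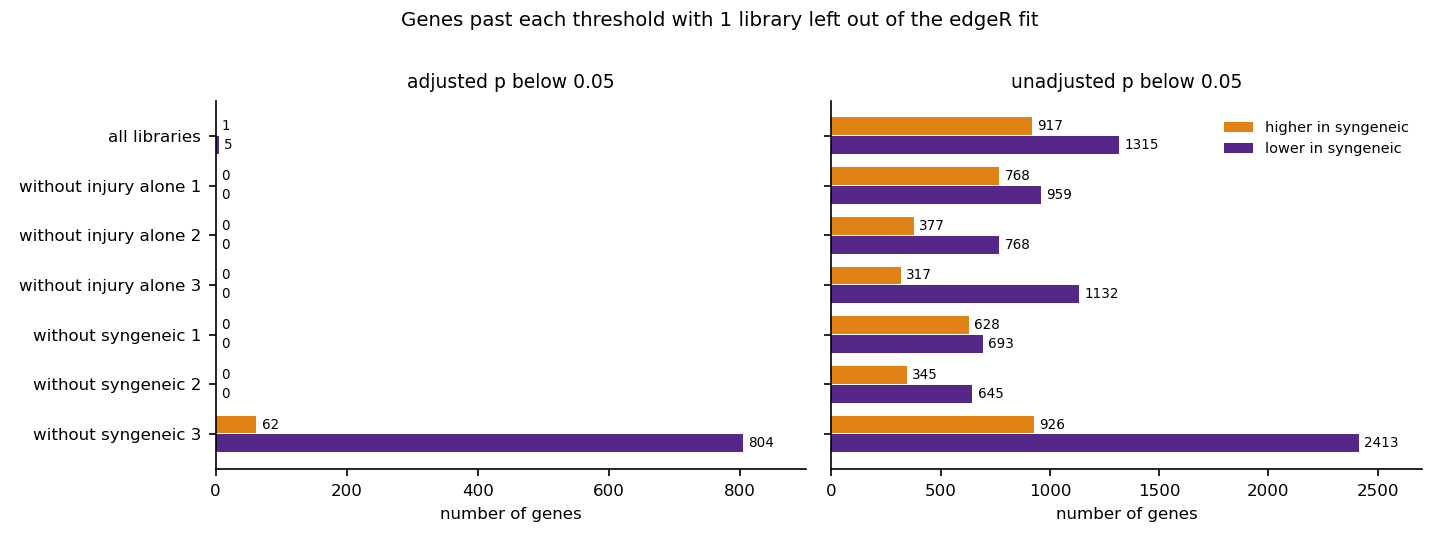
Number of genes (x axis) past an adjusted (left) or unadjusted (right) p of 0.05 in edgeR with all libraries and with each library of the comparison left out (y axis), higher and lower in syngeneic cord drawn apart. The adjusted count is 1 and 5 with all libraries, 62 and 804 without syngeneic replicate 3, and 0 without any other library.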

How the data were processed

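Gene counts of 12 spinal cord libraries were analysed as deposited by the authors, 46078 genes in all. The submitters' processing notes name the build GRCm38, the aligner STAR 2.5.1, the counter featureCounts 1.5.1 and the assembler StringTie 1.3.3, beside Trim Galore 0.4.1, Picard and FastQC 0.11.5. Their order, the annotation release and the strand setting are not stated there, so genes with exons on both strands are uncertain. Genes were kept by edgeR 4.0.16 filterByExpr (at least 10 counts, 15 in total), scaled by TMM and fitted with the robust quasi-likelihood test on all 12 libraries, 1 mean per group, under R 4.3.3. Contrasts were adjusted over the 16527 genes tested (Benjamini-Hochberg, threshold 0.05). CPM are per library total after TMM, and log2 CPM used a prior count of 2. Log2 differences are syngeneic minus injury alone, and ± is the SE unless given as SD. DESeq2 1.42.0, limma-voom (limma 3.58.1), other scalings and filters, and leaving out each library were alternatives. The named genes were those called, the 12 per direction next in p with no overlap, a mean log2 CPM of at least 1 and a log2 difference of at least 0.58, all clock and immediate early genes, the 2 members with the smallest p in each other list, and 7 set markers. Genes named beyond this rule (Lama2, Col4a1, Col4a2 and Hspg2, Sphk2) were chosen after their values were seen. The members and lists were chosen with earlier results of these data known. Some genes are not reported here by name. The scripts were tested on simulated counts. Intervals and count floors cover counting error only.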

Additional observations from a re-analysis of the deposited data

Results flagged for a closer look

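Clec4e differed between the 2 kinds of graft. The log2 difference, syngeneic minus allogeneic, was -2.54 with an edgeR adjusted p of 0.0465, and each of the 3 syngeneic libraries (0.0874, 0.0817 and 0.193 CPM) lay below each of the 3 allogeneic libraries (0.389, 0.564 and 1.01 CPM). It rests on 7 and 33 counts. Both groups are compared with the same injury-alone libraries, which cancel in this difference. Between 0 and 2 of the 6 called genes passed this test when 1 library was left out.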

How the results depend on the processing

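With all libraries edgeR called 1 gene higher and 5 lower. The higher count was 28 with DESeq2, 2 with RLE scaling, 2 with limma-voom, 3 without a filter on low counts and 2 when non-injured replicate 3 was left out of the fit, an alternative chosen after seeing the data. The lower count was 98 with DESeq2, 8 with limma-voom, 15 without the filter and 2 with only the 6 libraries compared. DESeq2 called 5 of the 6 genes and gave no adjusted p for 644 genes, Clec4e among them, and the fit of 6 libraries called 2 of them. Leaving out 1 library at a time gave 0 to 62 higher and 0 to 804 lower, the upper ends without syngeneic replicate 3. The cause was not tested. All 6 genes had the same direction under every alternative that tested them, and edgeR adjusted p for Arntl reached 0.0829 and for Clec4e 0.267. Of the 6 called genes, 1 also differed between the grafts, against 2 with DESeq2 and 0 to 2 with a library left out.

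Of 2275 repeats over 143 named genes, 2105 had the same direction and call, 122 gained a call, 35 lost one and 13 turned sign. Mbp turned to -0.028 with limma-voom. With a library left out the log2 differences ranged from -0.21 to 0.10 for Rora, -0.24 to 0.035 for Rorb, -0.078 to 0.41 for Per1, -0.21 to 0.050 for Bhlhe40, -0.055 to 0.15 for Bhlhe41, -0.21 to 0.011 for Jund, -0.15 to 0.068 for Arc, -0.034 to 0.31 for Npas4, -0.22 to 0.11 for Homer1 and -0.34 to 0.23 for Mbp. Of 719 repeats of the 45 list medians, 698 moved by less than 1 SD. No paired analysis was possible because the labels give no replicate numbers shared between the groups. Counts in the single digits limit Clec4e and similar genes.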
